A study of Gallus gallus with 20 samples.

Results

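Hepatic stellate cells and the extracellular matrix of the liver were followed through 40 listed genes: collagens, basement membrane proteins, cross-linking enzymes, proteoglycans, elastic fibre proteins, adhesive proteins, a matrix protease with its inhibitors, receptors for platelet-derived growth factor, and cytoskeletal or surface markers. The genes were taken by symbol from a table of raw RNA-seq counts of chicken liver, which named 13956 genes. Of the 40, 39 were used, and COL5A2 was not analysed here. All 39 passed the filter on low counts, which left 10697 named genes to be tested. Stellate cells lie between hepatocytes and the sinusoidal endothelium and, in mammals, store vitamin A while quiescent and lay down collagen, with smooth muscle actin, when activated. Platelet-derived growth factor and transforming growth factor beta are the best known drivers of that change. Portal fibroblasts, vascular smooth muscle and mesothelial cells use many of the same genes, so the list does not mark stellate cells alone, and the cells that made each RNA were not determined.

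Total RNA came from liver of chickens of 2 breeds, Ogye, a Korean native breed with dark skin, and Cornish, a heavy-bodied breed used for meat, each at 5 and at 10 weeks of age. The study set the hepatic transcriptomes of the breeds side by side because their body weights diverge. Each of the 4 groups, Ogye at 5 weeks, Cornish at 5 weeks, Ogye at 10 weeks and Cornish at 10 weeks, had 5 libraries, numbered as replicates 1 to 5. The labels give neither treatment nor sex, and do not say that each library is a separate bird; the tests therefore read only how far the libraries of a group lie from each other, which may be technical.

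Libraries held 14865637 to 31848768 counts, of which 9625549 to 21106844 fell on named genes. Levels are counts per 1000000 counts on named genes after scaling between libraries (CPM), so a count of 0, read as allowing 3 counts, corresponds to 0.128 to 0.335 CPM. Hepatocyte markers summed to between 145278 and 387463 CPM per library. Among quiescent stellate cell markers, LRAT, which esterifies retinol for storage, averaged 6.65 ± 1.71, 6.64 ± 1.52, 6.94 ± 1.85 and 6.70 ± 1.60 CPM (SD, n = 5 each) in the groups in the order named above. LRAT does not stand for its list. The 16 quiescent stellate and pericyte markers found summed to 81.9 to 122, 62.7 to 158, 86.0 to 164 and 119 to 196 CPM per library in those groups. Replicates 3, 4 and 5 of Ogye at 5 weeks stood apart from the other 17 libraries. Relative to each gene's median over the 20 libraries, their expression fell with the span of a gene on the chromosome. Spearman's rho of that deviation with span across genes was -0.61 to -0.60, against -0.15 to 0.36 in the other 17. The members' median span was 39.0 kb against 17.5 kb over all genes. In the other 17, this rho was -0.15 to 0.079 at 5 weeks and 0.115 to 0.36 at 10 weeks. The ages of both breeds thus differed in it also without the 3 libraries. Within the members alone that rho was -0.38 to -0.29 in the 3 libraries. Counts of called genes that use Ogye at 5 weeks, and the members described there, are therefore also given without them, which leaves that group with 2 libraries, and the part of gene span in the results was not tested.

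**Figure D1:**
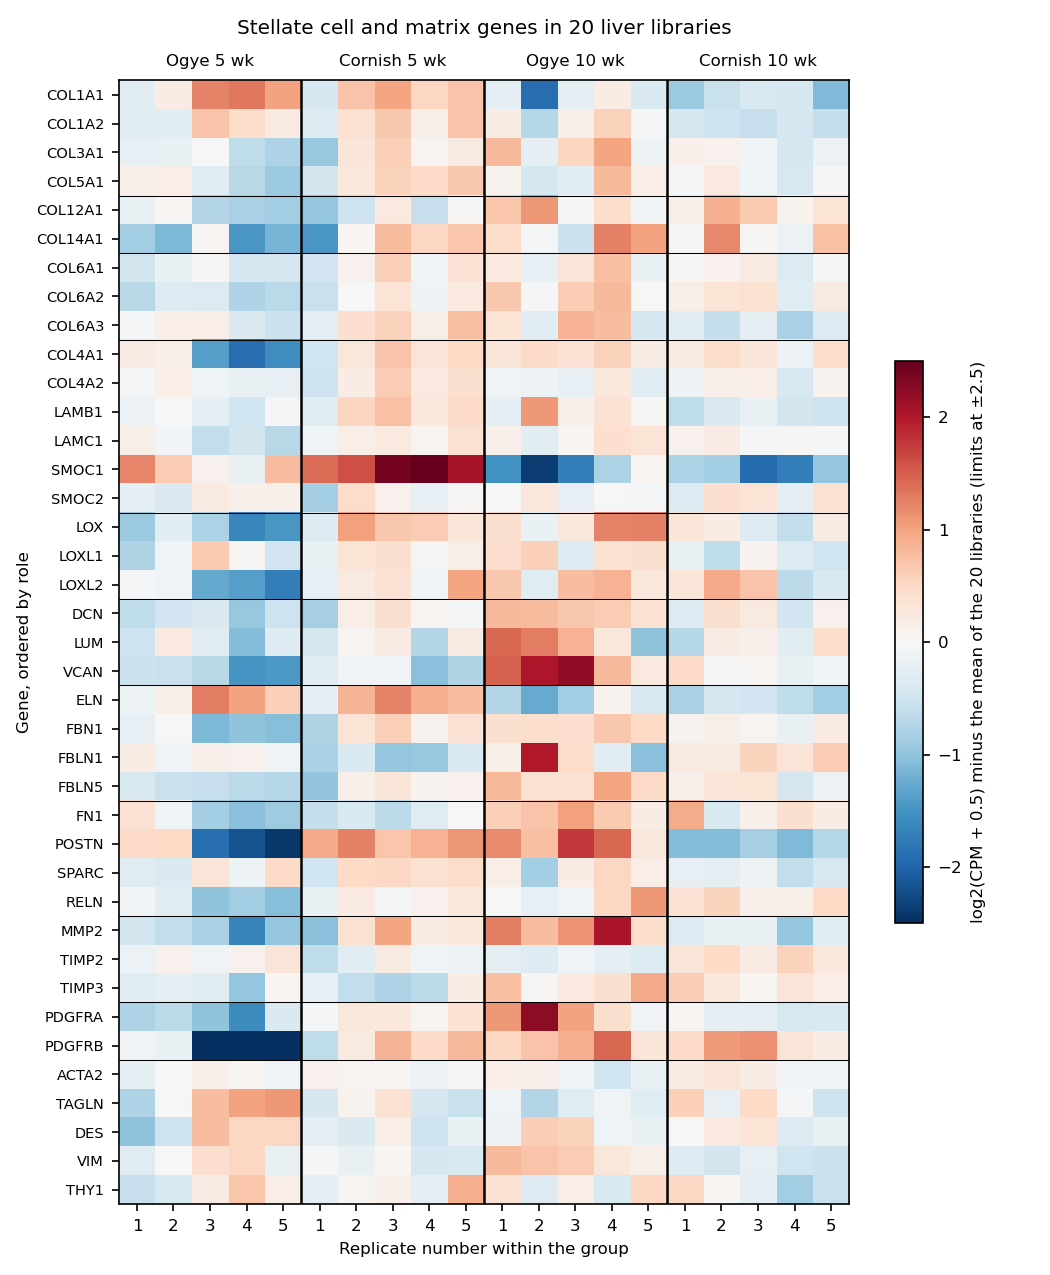
Rows are the 39 genes ordered by role, with thin lines between roles, and columns are the 20 libraries by group and replicate number. Colour gives log2(CPM + 0.5) minus the mean of the 20 libraries, and the dark blue cells of PDGFRB and POSTN in replicates 3 to 5 of Ogye at 5 weeks stand for 0.132 to 0.595 CPM and 2.60 to 4.0 CPM.

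The map of 39 genes by 20 libraries shows the members' levels on a log2 scale relative to each gene's own mean. Averaged over the members, that level was -0.57 to -0.14 in the 5 libraries of Ogye at 5 weeks and 0.11 to 0.50 in those of Ogye at 10 weeks. Cornish libraries were at -0.40 to 0.41 at 5 weeks, which overlapped both Ogye ages, and at -0.33 to 0.07 at 10 weeks. The Ogye ages did not overlap in this average, and the Cornish ages did. In bulk liver RNA, fewer cells of a type and less RNA per cell cannot be told apart.

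At 10 weeks, 6 of the 39 members were lower in Cornish than in Ogye and 1 was higher. PDGFRA, POSTN, MMP2 and VCAN were 3.14-fold, 4.57-fold, 3.11-fold and 3.33-fold lower, VIM 1.97-fold and LAMB1 1.73-fold lower, and TIMP2 was 1.53-fold higher. The 6 lower members were 15.4% of the list, against 3.59% of all tested genes called lower, and the single higher member was 2.56%, against 4.06% called higher. The median log2 difference over the members was -0.30, against -0.03 over all tested genes, and 33 of the 39 had a negative sign. A member is called higher or lower where edgeR's quasi-likelihood test, with p-values adjusted by the Benjamini-Hochberg method across every gene tested, gave an adjusted p under 0.05; 14 members had an unadjusted p under that value. Without the 3 libraries that stood apart, which also enter the estimate of the spread, 8 were lower (20.5%) and 1 higher (2.56%), against 8.41% and 8.77% of all tested genes.

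Receptors come first among the roles. PDGFRA (chr4:64913447-64948001, build GRCg7b), the alpha receptor for platelet-derived growth factor and a marker of quiescent stellate cells and fibroblasts, read 4.33, 10.3, 4.06, 2.52 and 1.63 CPM in Ogye replicates 1 to 5 at 10 weeks and 1.84, 1.44, 1.44, 1.22 and 1.24 CPM in Cornish. Replicate 2 of Ogye was the highest, and replicate 5 of Ogye lay within the Cornish range. The log2 difference, Cornish minus Ogye, was -1.65 ± 0.40 (SE, edgeR adjusted p = 0.016), and without Ogye replicate 2 it was -1.13 (edgeR adjusted p = 0.060). PDGFRB, the beta receptor and a pericyte marker, read 8.33, 9.62, 11, 16.1 and 7.08 CPM in Ogye and 8.14, 12.4, 13.1, 7.25 and 6.52 CPM in Cornish, which overlapped throughout. Its log2 difference was -0.13 ± 0.57 (SE, edgeR adjusted p = 0.93).

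POSTN encodes periostin, a matricellular protein of fibroblasts (chr1:171879363-171912629). It read 37.1, 27.4, 55.8, 44.5 and 19.5 CPM in Ogye at 10 weeks and 7.30, 7.36, 8.83, 7.25 and 9.63 CPM in Cornish. Every Cornish library lay below every Ogye library, with a log2 difference of -2.19 ± 0.50 (SE, edgeR adjusted p = 0.012). Among the other adhesive and matricellular members, FN1 (fibronectin), SPARC (osteonectin, a collagen-binding protein) and RELN (reelin, a secreted glycoprotein made by stellate cells) had log2 differences of -0.35, -0.41 and 0.00 and did not pass.

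MMP2 is the gelatinase that stellate cells secrete, and TIMP2 binds and inhibits it. MMP2 (chr11:3350875-3385583) read 37.7, 26.3, 33.9, 64.7 and 20.9 CPM in Ogye at 10 weeks and 12.0, 13.6, 13.6, 7.53 and 12.3 CPM in Cornish. TIMP2 read 67.5, 63.5, 75.5, 68.3 and 63.1 CPM in Ogye and 98.3, 112, 92.4, 118 and 95.4 CPM in Cornish. The breeds did not overlap for either gene, in opposite directions, with log2 differences of -1.64 ± 0.34 for MMP2 and 0.61 ± 0.14 for TIMP2 (SE, edgeR adjusted p = 0.0077 and 0.012). TIMP3, an inhibitor that stays bound to the matrix, had a log2 difference of -0.21 and did not pass. MMP2 lies wholly within the span of an annotated long non-coding RNA, and TIMP2 shares 824 and 704 bases with CANT1 and USP36, and the strand setting of the counting is not given in the sources used here.

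Among proteoglycans, VCAN, the large aggregating proteoglycan versican (chrZ:63371177-63477536), read 4.91, 7.38, 8.57, 2.93 and 1.82 CPM in Ogye at 10 weeks and 2.23, 1.37, 1.5, 1.22 and 1.35 CPM in Cornish. The breeds overlapped only through Ogye replicate 5 and Cornish replicate 1. The log2 difference was -1.74 ± 0.44 (SE, edgeR adjusted p = 0.019), and it was -1.70 to -1.46 (edgeR adjusted p = 0.052 to 0.069) without Ogye replicate 2 or 3 or Cornish replicate 2 or 4. DCN, the small proteoglycan decorin, which binds collagen fibrils, read 374, 369, 341, 332 and 274 CPM in Ogye and 168, 279, 247, 152 and 229 CPM in Cornish. Cornish replicate 2 reached into the Ogye range, and the log2 difference was -0.65 ± 0.20 (SE, edgeR adjusted p = 0.056, and 0.037 in the fit without the 3 libraries that stood apart). LUM, the related proteoglycan lumican, had a log2 difference of -0.81 ± 0.36 (SE, edgeR adjusted p = 0.18).

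VIM, the intermediate filament protein vimentin of mesenchymal cells, read 21.1, 19.7, 18.7, 14.4 and 13.0 CPM in Ogye at 10 weeks and 9.30, 8.44, 10.2, 8.18 and 7.97 CPM in Cornish, with no overlap. Its log2 difference was -0.98 ± 0.18 (SE, edgeR adjusted p = 0.0040). The other markers of contractile or surface phenotype did not pass. ACTA2, the smooth muscle actin that marks activated stellate cells, read 68.5, 66.6, 56.6, 42.9 and 54.0 CPM in Ogye and 70.2, 75.5, 69.1, 56.9 and 56.0 CPM in Cornish. DES, the muscle intermediate filament protein desmin, read 9.24, 16.1, 15.6, 9.48 and 9.08 CPM in Ogye and 10.4, 12.3, 13.3, 8.11 and 9.01 CPM in Cornish. Their ranges overlapped, and the log2 differences were 0.18 ± 0.13 for ACTA2 and -0.16 ± 0.29 for DES (SE, edgeR adjusted p = 0.43 and 0.80).

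Collagens of the fibrillar, fibril-associated and microfibrillar classes did not pass at 10 weeks. COL1A1, which with COL1A2 forms type I collagen, read 7.41, 2.01, 7.39, 10.2 and 6.81 CPM in Ogye and 4.38, 5.84, 6.64, 6.38 and 3.83 CPM in Cornish. COL3A1, the chain of type III collagen, read 235, 113, 193, 265 and 123 CPM in Ogye and 146, 145, 128, 98.4 and 120 CPM in Cornish. For both genes the libraries of the breeds were interleaved, with log2 differences of -0.32 ± 0.37 for COL1A1 and -0.54 ± 0.26 for COL3A1 (SE, edgeR adjusted p = 0.66 and 0.22). COL6A3 of beaded-filament type VI collagen was -0.84 ± 0.27 (SE, edgeR adjusted p = 0.058) and passed without the 3 libraries that stood apart (edgeR adjusted p = 0.037). LAMB1, the laminin beta chain of basement membranes, was -0.79 ± 0.22 (SE, edgeR adjusted p = 0.031), with Ogye replicate 2 at 56.8 CPM against 22.7 to 34.1 CPM in the other Ogye libraries. LAMB1 missed the threshold without Ogye replicate 2 or Cornish replicate 1, 2, 4 or 5, at a log2 difference of -0.80 to -0.53 (edgeR adjusted p = 0.062 to 0.10). In 5 of the 39 members the Cornish libraries all lay below the Ogye libraries, POSTN, MMP2, VIM, FBN1 and FBLN5, and in 1, TIMP2, all above, where 5.5% and 6.78% of all tested genes were so arranged.

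**Figure D2:**
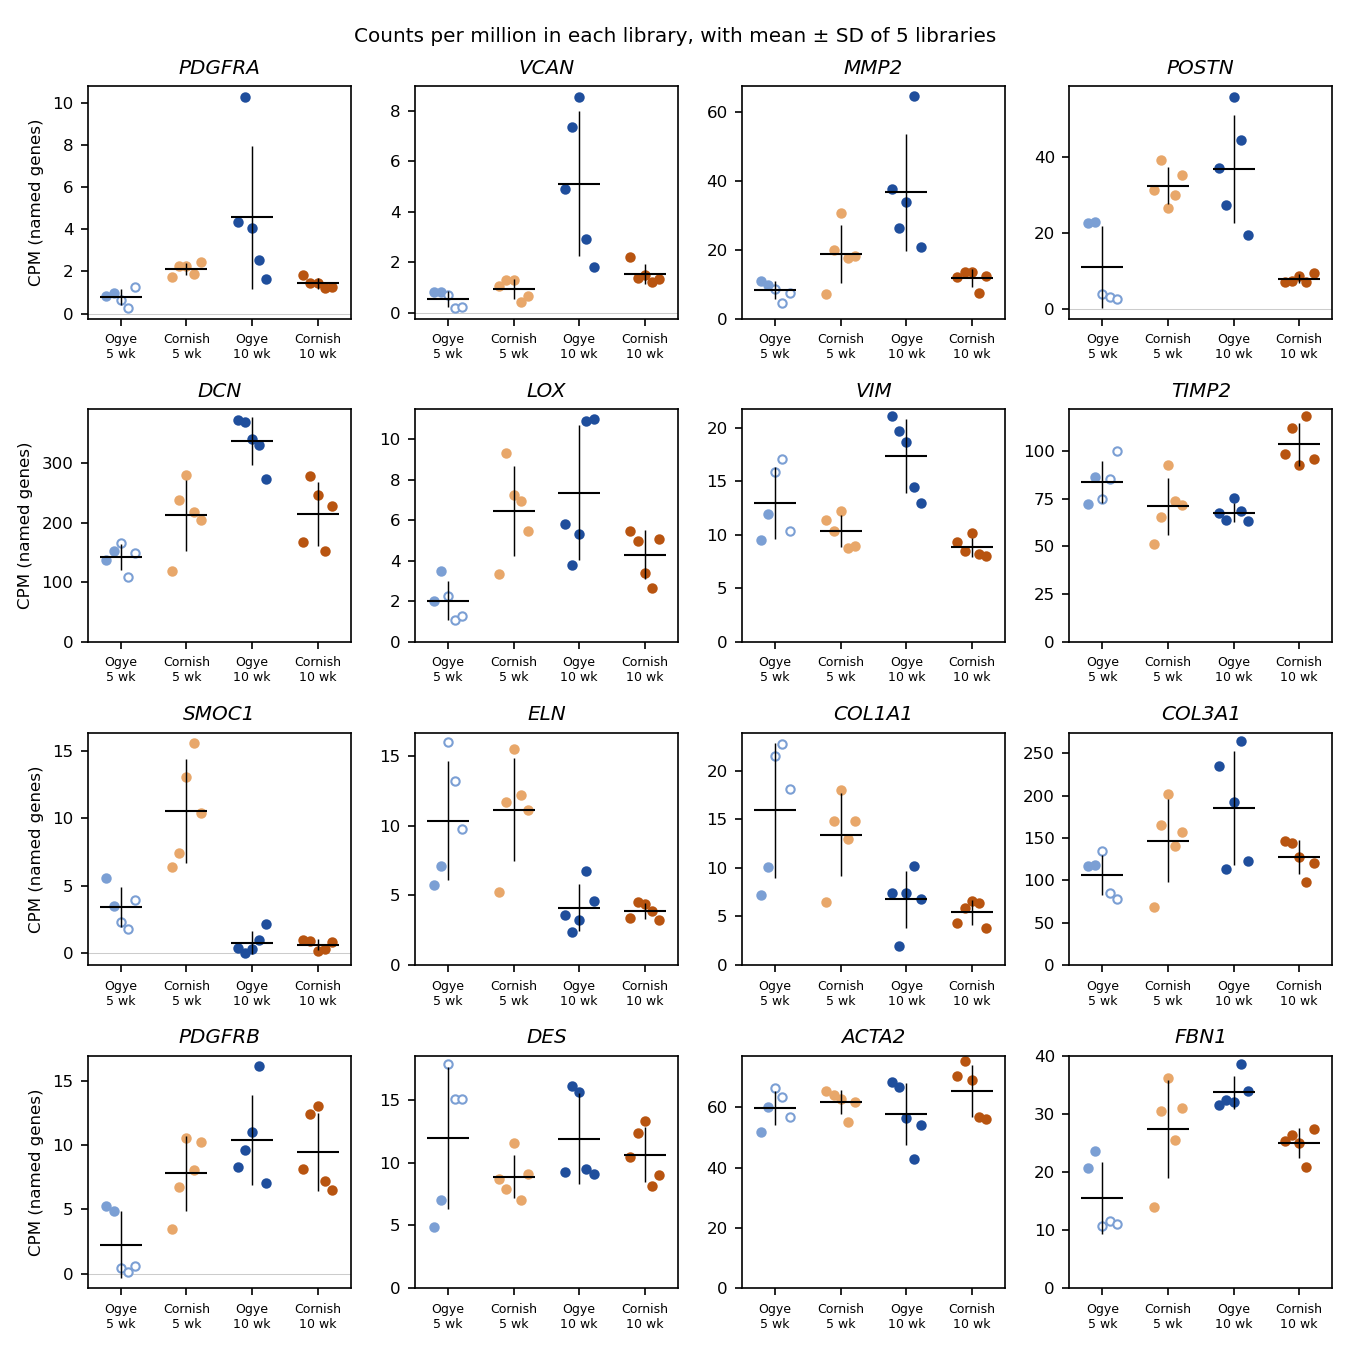
Each panel gives 1 gene, with CPM from 0 on the vertical axis and the 4 groups on the horizontal axis; points are libraries in replicate order, open points are replicates 3 to 5 of Ogye at 5 weeks, and bars are the mean ± SD of 5 libraries. POSTN and MMP2 of Cornish at 10 weeks lie below every library of Ogye at 10 weeks, and TIMP2 lies above.

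Genes outside the list that belong to the same machinery moved in both directions between the breeds at 10 weeks. Of all tested genes, 4.06% were called higher in Cornish and 3.59% lower, so single calls in lists of this size are near those shares. Of 25 tested genes of other matrix and basement membrane proteins, 1 was higher in Cornish and 3 were lower, with THBS2 (thrombospondin 2) at a log2 difference of 2.71 and LAMB3 (a laminin chain), ECM2 and FBLN2 at -2.26, -1.39 and -1.26. Of 18 tested genes of transforming and platelet-derived growth factor signalling, 2 were lower, SERPINE2 (a protease inhibitor) at -1.43 and CCN2 (connective tissue growth factor, a target of the former pathway) at -1.14. Of 17 genes of collagen folding 1 was lower, PLOD2, which hydroxylates collagen lysines, at -0.80, and 1 higher, the galactosyltransferase COLGALT2 at 0.98. Of 13 quiescent stellate and pericyte genes 1 was lower, CYGB, a globin of stellate cells and fibroblasts, at -1.30. Of 16 smooth muscle genes 1 was higher, MYOCD (myocardin, a regulator of smooth muscle genes) at 1.10. CALD1 (caldesmon, an actin-binding protein of smooth muscle) was lower at -1.86, with Ogye libraries spread from 63.5 to 530 CPM and Cornish libraries from 52.9 to 76.03 CPM.

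Markers of other cells also differed at 10 weeks. Of 10 tested heterophil markers 8 were lower in Cornish, where 3.59% of all tested genes were. The heterophil sum was 509 to 1322 CPM in Ogye against 40.03 to 160.1 CPM in Cornish, with no overlap. Endothelial markers summed to 659 to 872 CPM in Ogye and 703 to 908 CPM in Cornish, macrophage markers to 2161 to 2894 CPM and 2453 to 3164 CPM, and mesothelial markers to 11.2 to 27.1 CPM and 19.4 to 33.0 CPM, and these 3 sums overlapped. The mesothelial sum rests on few genes: of 6 found, 2 were tested, and in each breed 3 had no counts in any library at 10 weeks. Hepatocyte markers summed to 267847 to 387463 CPM in Ogye and 251655 to 286904 CPM in Cornish. Of 15 tested hepatocyte markers 4 were higher and 5 lower in Cornish, against 4.06% and 3.59% of all tested genes. Endothelial and macrophage markers had 1 higher each of 16. The part of these cells in the differences of the matrix genes was not tested.

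At 5 weeks the direction was the opposite in the fit of all libraries: 9 of the 39 members were higher in Cornish than in Ogye. They were PDGFRB at 3.33-fold, LOX at 3.16-fold, SMOC1 at 3.07-fold, POSTN at 2.90-fold, PDGFRA at 2.66-fold, MMP2 at 2.27-fold, FBN1 at 1.76-fold, RELN at 1.62-fold and COL6A2 at 1.48-fold. The 9 were 23.1% of the list, against 6.75% of all tested genes called higher; edgeR called no member lower, against 12.3% of all tested genes, and 19 members had an unadjusted p under 0.05 in either direction. The median log2 difference was 0.46 over the members and 0.00 over all tested genes. Without replicates 3, 4 and 5 of Ogye none of the 9 passed in edgeR, where 6 members had an unadjusted p under 0.05, and 0.155% of all tested genes were called higher and 0.748% lower. The median log2 difference over the members was then 0.45, and 33 of 39 had a positive sign.

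PDGFRB read 5.27, 4.91, 0.444, 0.132 and 0.595 CPM in Ogye at 5 weeks and 3.45, 6.74, 10.6, 8.07 and 10.3 CPM in Cornish. Replicates 3 to 5 of Ogye held 7, 2 and 8 counts of this gene, and replicates 1 and 2 lay within the Cornish range. The log2 difference was 1.73 ± 0.59 (SE, edgeR adjusted p = 0.047) and without the 3 libraries 0.62 ± 0.39 (edgeR adjusted p = 0.54). PDGFRA read 0.837, 0.955, 0.635, 0.264 and 1.26 CPM in Ogye and 1.75, 2.26, 2.25, 1.90 and 2.44 CPM in Cornish. All Cornish libraries lay above all Ogye libraries, of 4 to 22 counts each, with a log2 difference of 1.41 ± 0.41 (SE, edgeR adjusted p = 0.025) and of 1.23 ± 0.51 without the 3 libraries (edgeR adjusted p = 0.31).

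POSTN read 22.6, 23.0, 4.0, 3.17 and 2.60 CPM in Ogye at 5 weeks and 31.4, 39.1, 26.5, 29.9 and 35.3 CPM in Cornish. Its breeds did not overlap, but replicates 1 and 2 of Ogye sat close to the Cornish range, and the log2 difference was 1.53 ± 0.48 with all libraries (SE, edgeR adjusted p = 0.033) and 0.51 ± 0.28 without the 3 (edgeR adjusted p = 0.46). MMP2 read 11, 9.86, 8.51, 4.43 and 7.51 CPM in Ogye and 7.19, 19.96, 30.8, 17.7 and 18.3 CPM in Cornish. Cornish replicate 1 lay among the Ogye libraries, and the log2 difference was 1.18 ± 0.33 (SE, edgeR adjusted p = 0.023), and 0.85 ± 0.45 without the 3 libraries (edgeR adjusted p = 0.44).

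LOX, lysyl oxidase, the enzyme that cross-links collagen and elastin, read 2.02, 3.47, 2.29, 1.06 and 1.26 CPM in Ogye at 5 weeks and 3.35, 9.30, 7.22, 6.96 and 5.48 CPM in Cornish. Cornish replicate 1 lay within the Ogye range. The log2 difference was 1.66 ± 0.36 (SE, edgeR adjusted p = 0.0086), and 1.23 ± 0.45 without the 3 libraries (edgeR adjusted p = 0.25). LOXL2, a related oxidase that acts on basement membrane collagen, had a log2 difference of 1.40 ± 0.52 (SE, edgeR adjusted p = 0.064), and LOXL1, which acts on elastin, one of 0.41 ± 0.47 with 2 to 18 counts per library. Without the 3 libraries they were at 0.49 and 1.19 (edgeR adjusted p = 0.73 and 0.40).

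FBN1, the fibrillin of elastic microfibrils, read 20.8, 23.7, 10.7, 11.6 and 11.2 CPM in Ogye at 5 weeks and 13.9, 30.5, 36.3, 25.5 and 31.0 CPM in Cornish. SMOC1, a calcium-binding glycoprotein of basement membranes (chr5:27230764-27352062), read 5.56, 3.52, 2.29, 1.78 and 3.94 CPM in Ogye and 6.36, 7.42, 13.1, 15.6 and 10.4 CPM in Cornish. For FBN1 replicate 1 of Cornish lay below replicates 1 and 2 of Ogye, and for SMOC1 the breeds did not overlap. The log2 differences were 0.81 ± 0.23 for FBN1 and 1.62 ± 0.51 for SMOC1 (SE, edgeR adjusted p = 0.025 and 0.035), and 0.30 and 1.22 without the 3 libraries (edgeR adjusted p = 0.63 and 0.46).

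COL1A1 and DES had the opposite sign with all libraries and the same sign without the 3. COL1A1 read 7.19, 10.1, 21.5, 22.7 and 18.1 CPM in Ogye at 5 weeks and 6.51, 14.8, 18.1, 13.0 and 14.8 CPM in Cornish. DES read 4.87, 7.03, 17.8, 15.1 and 15.0 CPM in Ogye and 8.69, 7.89, 11.6, 7.05 and 9.09 CPM in Cornish. For both genes replicates 3 to 5 of Ogye were at or above the Cornish maximum and replicates 1 and 2 below the Cornish median. The log2 differences were -0.24 ± 0.35 for COL1A1 and -0.43 ± 0.29 for DES and did not pass (SE, edgeR adjusted p = 0.62 and 0.28), and without the 3 libraries they were 0.64 and 0.57, also short of the threshold (edgeR adjusted p = 0.55 and 0.39). COL1A2, the other chain of type I collagen, was at 0.14 and 0.64 (edgeR adjusted p = 0.66 and 0.33).

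COL3A1 read 117, 118, 135, 85.5 and 78.2 CPM in Ogye at 5 weeks and 68.9, 166, 202, 141 and 157 CPM in Cornish. ACTA2 read 51.9, 60.1, 66.3, 63.4 and 56.7 CPM in Ogye and 65.4, 64.1, 62.7, 55.1 and 61.8 CPM in Cornish. Both overlapped, with log2 differences of 0.46 ± 0.26 for COL3A1 and 0.05 ± 0.13 for ACTA2 (SE, edgeR adjusted p = 0.20 and 0.79), and 0.33 and 0.14 without the 3 libraries (edgeR adjusted p = 0.74 and 0.76). FBLN1, a fibulin of elastic fibres and basement membranes, was 78.5 to 95.9 CPM in Ogye and 42.5 to 64.5 CPM in Cornish, the single member whose Cornish libraries all lay lower, and its log2 difference of -0.73 ± 0.37 did not pass (SE, edgeR adjusted p = 0.15, and 0.57 without the 3 libraries, at -0.73). RELN and COL6A2, called with all libraries at 0.69 and 0.57, were at 0.26 and 0.51 without the 3 (edgeR adjusted p = 0.73 and 0.44). Non-overlap in that direction was met by 3.7% of all tested genes, and in the other, met by PDGFRA, POSTN and SMOC1, by 3.15%.

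The count at 5 weeks depended on single libraries as well. It was 1 or 2 higher members without replicate 3, 4 or 5 of Ogye or replicate 3 or 5 of Cornish, 4 or 5 without Cornish replicate 4 or 2, and 17 without Cornish replicate 1. That Cornish library was the lowest of its group in 29 of the 39 members. Markers of other cells moved with the same libraries: the macrophage marker sum was 2510 to 5175 CPM in Ogye, and 2510 to 3297 CPM in replicates 1 and 2, against 2009 to 2682 CPM in Cornish, and 8 of 16 macrophage markers were called lower in Cornish, against 12.3% of all tested genes. Without the 3 libraries each of the 8 missed the threshold (edgeR adjusted p = 0.057 to 0.71), and the median log2 difference of the 16 was -0.24, against -0.49 with all libraries. Their part in the matrix genes' values was not tested.

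**Figure D3:**
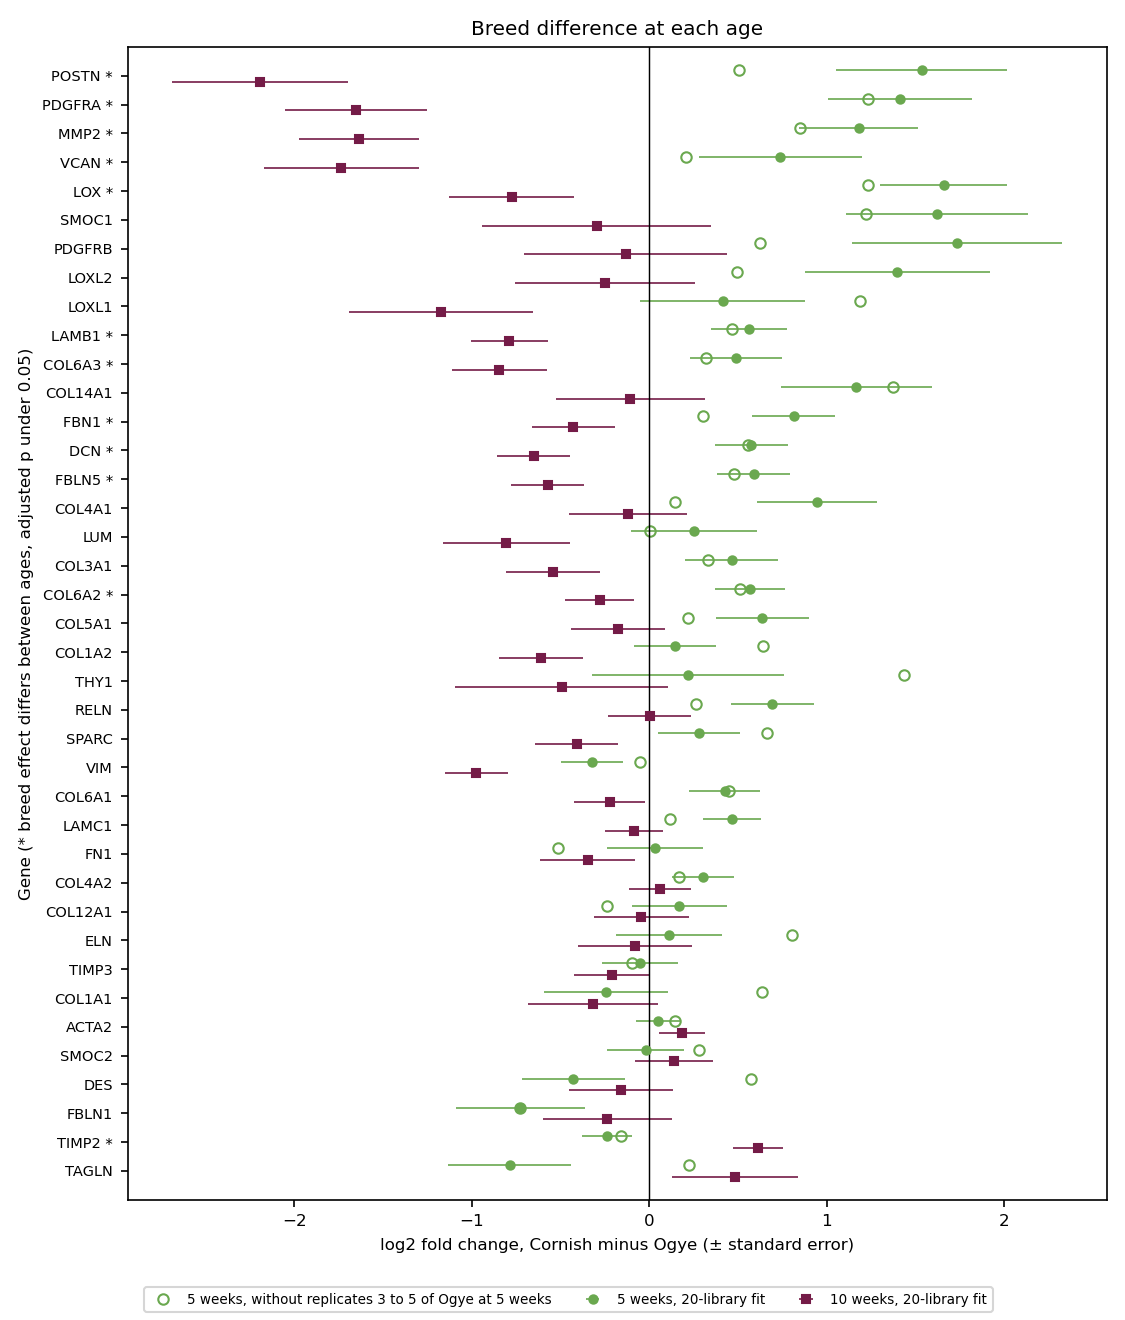
The horizontal axis gives the log2 difference, Cornish minus Ogye, with standard errors as bars, for each of the 39 genes on the vertical axis; filled circles are 5 weeks, squares 10 weeks, and open circles 5 weeks without replicates 3 to 5 of Ogye. Asterisks mark the 12 genes whose breed difference changed between the ages; POSTN moved from 1.53 at 5 weeks to -2.19 at 10 weeks.

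The change of the breed difference between the ages was tested directly as an interaction. It was negative, that is, shifted towards Ogye at 10 weeks, in 11 of the 39 members and positive in 1, TIMP2. The 11 were 28.2% of the list, against 10.1% of all tested genes called negative, and TIMP2 was 2.56%, against 13.3% called positive; 26 members had an unadjusted p under 0.05. The median shift was -0.81 over the members and -0.05 over all tested genes. Without replicate 1 of Ogye at 5 weeks 17 members were negative. The shift was -3.73 ± 0.69 for POSTN, -3.06 ± 0.57 for PDGFRA and -2.82 ± 0.47 for MMP2 on the log2 scale (SE, edgeR adjusted p = 0.0015, 0.0016 and 0.00082). LOX followed at -2.43 ± 0.50 and LAMB1 at -1.35 ± 0.30 (SE, edgeR adjusted p = 0.0029 and 0.0048). By role, the 2 growth factor receptors had a median shift of -2.46 with 1 called, and the 3 cross-linking enzymes -1.65 with 1 called. The 3 proteoglycans were at -1.23 with 2 called, and the 5 cytoskeletal and surface markers at 0.13 with 0 called. Among those markers VIM at -0.65 and TAGLN at 1.27 were nearest to the threshold (edgeR adjusted p = 0.063 and 0.067). Without the 3 libraries that stood apart these 4 medians were -1.82, -2.01, -1.21 and -0.73, and 1 cytoskeletal or surface marker was called negative.

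Among the remaining shifts, DCN was at -1.23 ± 0.29 and TIMP2 at 0.85 ± 0.20 (SE, edgeR adjusted p = 0.0062 and 0.0058). VCAN, COL6A3, FBN1, FBLN5 (a fibulin that organises elastic fibres) and COL6A2 were at -2.47, -1.33, -1.24, -1.16 and -0.85, and these 5 lost the call without the 3 libraries that stood apart (edgeR adjusted p = 0.065 to 0.12). There, with 2 libraries in Ogye at 5 weeks, they were at -1.94, -1.17, -0.74, -1.05 and -0.80, the largest relative move being that of FBN1. COL6A2 lost it in 9 of the fits that left out 1 library as well (edgeR adjusted p = 0.051 to 0.070). With an offset for the trend with gene span FBLN5, COL6A3 and COL6A2 also missed the threshold, at -0.80, -0.94 and -0.65 (edgeR adjusted p = 0.059, 0.069 and 0.094). Without the 3 libraries POSTN, PDGFRA, MMP2, LOX, LAMB1, DCN and TIMP2 kept the call, at -2.71, -2.89, -2.49, -2.01, -1.26, -1.21 and 0.77. VIM, COL1A2 and LOXL1 passed there in addition, at -0.92, -1.25 and -2.36. In that fit 9 members were negative (23.1%) and 1 positive (2.56%), against 5.8% and 7.81% of all tested genes. ACTA2, DES and COL1A1 had shifts of 0.13, 0.27 and -0.07 and did not pass (edgeR adjusted p = 0.61, 0.65 and 0.92). COL3A1 and PDGFRB had larger shifts, -1.01 ± 0.37 and -1.87 ± 0.82, that also missed the threshold (SE, edgeR adjusted p = 0.056 and 0.10). Of 26 alternative fits, COL3A1 passed in 5 and PDGFRB in 2.

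In Ogye, 22 of the 39 members rose from 5 to 10 weeks and 4 fell. The rise was 8.84-fold for VCAN, 5.69-fold for PDGFRA, 4.43-fold for PDGFRB, 4.42-fold for MMP2 and 3.59-fold for LOX, and the members that fell were SMOC1, ELN, COL1A1 and TAGLN. The 22 were 56.4% of the list, against 21.2% of all tested genes called higher, and the 4 were 10.3%, against 24.8% called lower; 28 members had an unadjusted p under 0.05. The median log2 change was 0.66 over the members and -0.00 over all tested genes. This comparison shares the libraries of Ogye with both comparisons of the breeds. Without replicates 3 to 5 at 5 weeks, 9 members rose (23.1%) and 1 fell (2.56%), against 6.24% and 7.73% of all tested genes, and 8 of the 26 calls were kept in the same direction. Markers of other cells moved too: the heterophil sum was 83.6 to 270 CPM at 5 weeks and 509 to 1322 CPM at 10 weeks, with 10 of 10 tested markers higher. Endothelial markers had 7 higher and 1 lower of 16, hepatocyte markers 7 and 4 of 15, and macrophage markers 1 and 8 of 16. Without the 3 libraries the heterophil markers had 6 higher of 10, the endothelial 2 higher and 1 lower, the hepatocyte 4 higher, and the macrophage 1 lower. Their part in the change of the matrix genes was not tested.

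Those 8 were VCAN, PDGFRA, MMP2, LOX, FBLN5, DCN and COL6A2, which rose, and SMOC1, which fell. VCAN at 5 weeks read 0.837, 0.825, 0.698, 0.198 and 0.223 CPM in Ogye, 3 to 19 counts a library, below every value at 10 weeks, where it read 1.82 to 8.57 CPM. Its log2 change was 3.14 ± 0.47 (SE, edgeR adjusted p = 1.0e-04), and 2.62 ± 0.58 without the 3 libraries (edgeR adjusted p = 0.0079). DCN at 5 weeks read 137, 153, 166, 110 and 149 CPM, also below every value at 10 weeks, and rose by 1.24 ± 0.21 on the log2 scale (SE, edgeR adjusted p = 0.00020). The log2 rise was 2.51 ± 0.42 for PDGFRA, 2.14 ± 0.34 for MMP2 and 1.85 ± 0.36 for LOX (SE, edgeR adjusted p = 0.00019, 0.00016 and 0.00069), and 2.34, 1.82 and 1.42 without the 3 libraries (edgeR adjusted p = 0.0096, 0.018 and 0.048). No library of Ogye at 5 weeks reached the 10-week range of any of these 5 genes.

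FBLN5 rose from 12.2 to 15.5 CPM at 5 weeks to 26.6 to 41.3 CPM at 10 weeks, and COL6A2 from 31.99 to 44.0 CPM to 53.4 to 96.4 CPM. In all, 9 of the 39 members lay wholly higher at 10 weeks and 0 wholly lower, where 9.81% and 10.1% of all tested genes did. SMOC1 fell from 1.78 to 5.56 CPM to 0.416, 0, 0.296, 1.01 and 2.18 CPM, a log2 change of -2.12 ± 0.58 (SE, edgeR adjusted p = 0.0067); replicate 5 at 10 weeks reached into the 5-week range. The count of 0 in replicate 2 allows up to 0.335 CPM there. VIM read 9.50, 11.9, 15.9, 17.1 and 10.3 CPM at 5 weeks, and DES and VIM passed as higher at 10 weeks in the fit without the 3 libraries, at a log2 change of 1.003 for DES and 0.70 for VIM (edgeR adjusted p = 0.027 and 0.025), where the fit of all libraries gave -0.00 for DES and 0.43 for VIM.

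The other 18 calls in Ogye missed the threshold without the 3 libraries. PDGFRB had a log2 change of 2.15 ± 0.60 and POSTN of 1.72 ± 0.48 (SE, edgeR adjusted p = 0.0077 and 0.0078), and without the 3 libraries they were at 1.04 and 0.70 (edgeR adjusted p = 0.094 and 0.11). COL1A1 was at -1.23 ± 0.36, ELN, the elastin gene, at -1.33 ± 0.32 and COL3A1 at 0.80 ± 0.26 (SE, edgeR adjusted p = 0.010, 0.0026 and 0.019), against -0.34, -0.63 and 0.67 without them (edgeR adjusted p = 0.62, 0.24 and 0.22). With an offset for the trend with gene span COL3A1 was at 0.11 (edgeR adjusted p = 0.76). It also missed the threshold without replicate 4 or 5 at 5 weeks or replicate 1 or 4 at 10 weeks, at 0.64 to 0.73 (edgeR adjusted p = 0.0512 to 0.0625). FBN1, FN1, RELN, TIMP3, LUM, LOXL2, COL6A1, the fibril-associated collagens COL12A1 and COL14A1 and the basement membrane chains COL4A1, LAMC1 and LAMB1 rose by 0.45 to 1.64 on the log2 scale and TAGLN, an actin-binding protein of smooth muscle, fell by 0.96, and these lost the call as well. The log2 change stayed about as large for COL14A1 (1.44 with all libraries, 1.64 without the 3), COL6A1 (0.51 and 0.54), TIMP3 (0.83 and 0.79), LUM (1.15 and 0.91) and LAMB1 (0.53 and 0.44). It was smaller for FBN1 (1.11 and 0.61), FN1 (1.07 and 0.52), RELN (0.95 and 0.53), COL12A1 (0.98 and 0.57), LOXL2 (1.64 and 0.74), COL4A1 (1.01 and 0.22) and LAMC1 (0.45 and 0.11), and TAGLN was at 0.06. With the offset for gene span, COL14A1, COL6A1, TIMP3 and LAMB1 were at 0.73, 0.37, 0.49 and 0.17 and missed the threshold. RELN, COL12A1, LAMC1 and TAGLN, at 0.25, 0.43, 0.05 and -0.03, missed it there too. LUM, FBN1, FN1, LOXL2 and COL4A1 passed with the offset. Of the 13, LUM missed the threshold without replicate 1 at 10 weeks (0.93, edgeR adjusted p = 0.051), and COL4A1, LAMC1, TAGLN, COL6A1 and LAMB1 in 3 to 15 of the fits that left out 1 library (edgeR adjusted p = 0.0504 to 0.235).

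**Figure D4:**
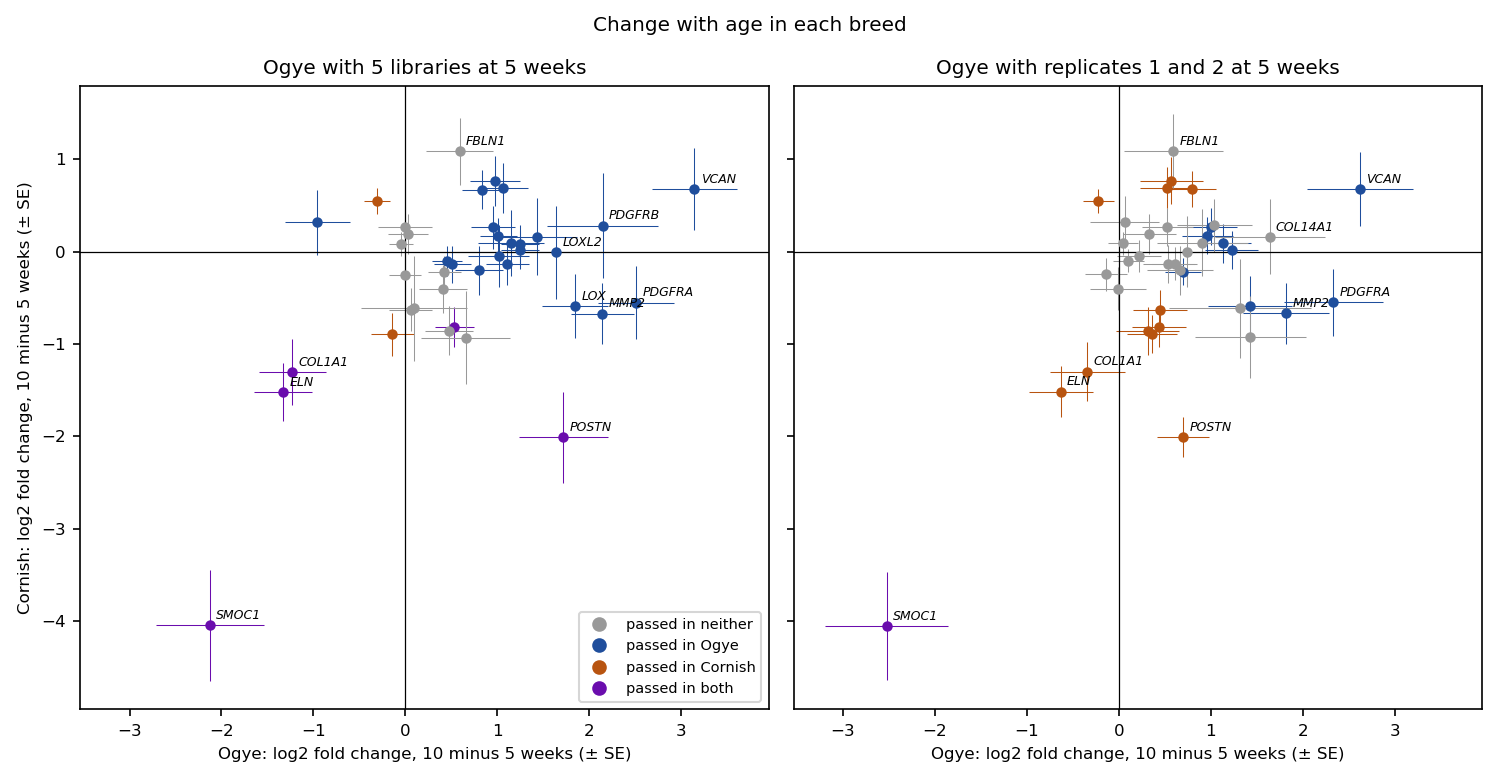
The axes give the log2 change from 5 to 10 weeks with standard errors, in Ogye horizontally and in Cornish vertically, for the 39 genes; the left panel uses all 20 libraries and the right panel leaves out replicates 3 to 5 of Ogye at 5 weeks. SMOC1 lies low on both axes, VCAN, PDGFRA and MMP2 lie far to the right in both panels, and POSTN moves from 1.72 to 0.70 on the Ogye axis between the panels.

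In Cornish, 6 of the 39 members fell from 5 to 10 weeks and 1 rose. SMOC1 fell 16.5-fold, POSTN 4.02-fold, ELN 2.86-fold, COL1A1 2.47-fold, COL1A2 1.86-fold and LAMB1 1.76-fold, and TIMP2 rose 1.46-fold. The 6 were 15.4% of the list, against 3.29% of all tested genes called lower, and the single riser was 2.56%, against 4.07% called higher; 13 members had an unadjusted p under 0.05. The median log2 change was -0.10 over the members and -0.04 over all tested genes. This comparison shares the Cornish libraries with the comparisons of the breeds. In the fit without the 3 Ogye libraries, where the spread is estimated without them, 8 members fell (20.5%) and 4 rose (10.3%), against 9.77% and 10.5% of all tested genes.

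SMOC1 fell from 6.36 to 15.6 CPM at 5 weeks to 0.999, 0.938, 0.188, 0.287 and 0.828 CPM at 10 weeks, where it held 3 to 13 counts. Its log2 change was -4.04 ± 0.60 (SE, edgeR adjusted p = 0.00087), with no overlap of the ages. ELN read 5.25, 11.7, 15.5, 12.2 and 11.1 CPM at 5 weeks and 3.38, 4.54, 4.38, 3.87 and 3.21 CPM at 10 weeks, again with no overlap, and its log2 change was -1.52 ± 0.31 (SE, edgeR adjusted p = 0.0079). In Ogye, ELN read 5.71, 7.08, 16.0, 13.2 and 9.74 CPM at 5 weeks and 3.58, 2.35, 3.25, 6.76 and 4.63 CPM at 10 weeks. There replicate 4 at 10 weeks lay above replicate 1 at 5 weeks.

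POSTN fell from 26.5 to 39.1 CPM to 7.25 to 9.63 CPM, a log2 change of -2.01 ± 0.49 (SE, edgeR adjusted p = 0.020, and 0.053 without Cornish replicate 2 at 10 weeks, at -1.98). COL1A1 fell by 1.30 ± 0.36 and COL1A2 by 0.89 ± 0.23 (SE, edgeR adjusted p = 0.034 and 0.027), and the ages did not overlap for COL1A2, at 18.7 to 38.6 CPM and 15.4 to 17.4 CPM. COL1A1 missed the threshold in 9 and COL1A2 in 6 of the fits that left out 1 library, with edgeR adjusted p of 0.055 to 0.082 and of 0.052 to 0.069. LAMB1 fell by 0.82 ± 0.21 (SE, edgeR adjusted p = 0.028), and missed it in 6 (edgeR adjusted p = 0.053 to 0.069).

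TIMP2 at 5 weeks read 51.4, 65.1, 92.8, 73.7 and 71.5 CPM in Cornish and 72.2, 86.2, 74.8, 85.3 and 99.6 CPM in Ogye. In Cornish its lowest value at 10 weeks, 92.4 CPM, lay just under the highest at 5 weeks, and the log2 change was 0.54 ± 0.14 (SE, edgeR adjusted p = 0.025). It missed the threshold without Cornish replicate 1 at 5 weeks or replicate 2 or 4 at 10 weeks, at 0.46 to 0.51 (edgeR adjusted p = 0.063 to 0.065). VIM at 5 weeks read 11.4, 10.3, 12.2, 8.73 and 8.99 CPM, VCAN 1.07, 1.32, 1.32, 0.441 and 0.656 CPM and DCN 119, 239, 281, 218 and 205 CPM in Cornish. These 3 genes overlapped with their 10-week values, and their log2 changes were -0.23, 0.67 and 0.02. FBLN1 lay wholly higher at 10 weeks, at 98.2 to 132 CPM against 42.5 to 64.5 CPM, with a log2 change of 1.08 ± 0.37 that did not pass (SE, edgeR adjusted p = 0.074). Non-overlap was met upwards by 1 and downwards by 4 of the 39 members, against 8.74% and 7.6% of all tested genes.

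Leaving out 1 library moved the Cornish counts. The number of members that fell was 2 or 3 without replicate 3 or 5 at 5 weeks or replicate 1, 2 or 5 at 10 weeks. SMOC1 and ELN were called lower in each of the 27 alternative fits. Heterophil markers summed to 174 to 485 CPM in Cornish at 5 weeks and 40.03 to 160.1 CPM at 10 weeks, and hepatocyte markers to 145278 to 243661 CPM and 251655 to 286904 CPM, and the ages did not overlap in either sum. The heterophil sum moved with LYG2, the 1 of 10 tested markers called lower, at -2.22, while the other 9 had log2 changes of 0.13 to 1.24 that did not pass. Of 15 tested hepatocyte markers 7 rose, where 4.07% of all tested genes rose and 3.29% fell. The part of these cells in the fall of the matrix genes was not tested.

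Set side by side, POSTN was at a log2 change of 1.72 in Ogye and -2.01 in Cornish, PDGFRA at 2.51 and -0.55, MMP2 at 2.14 and -0.67, LOX at 1.85 and -0.59 and VCAN at 3.14 and 0.67. The difference between the breeds in the change with age is the same contrast as the interaction of breed and age above. With all libraries it passed for all 5. Without the 3 libraries that stood apart it missed the threshold for VCAN (-1.94, edgeR adjusted p = 0.066) and passed for POSTN, PDGFRA, MMP2 and LOX. POSTN in Ogye was then at 0.70 (edgeR adjusted p = 0.11). SMOC1, at -2.12 and -4.04, and ELN, at -1.33 and -1.52, had the same sign in both breeds, and their interaction did not pass (edgeR adjusted p = 0.094 for SMOC1, with an unadjusted p of 0.031, and 0.77 for ELN). ELN in Ogye was at -0.63 without the 3 libraries (edgeR adjusted p = 0.24), where SMOC1 in Ogye kept its call.

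Other genes of matrix assembly also changed with age in Ogye. Their counts stand against 21.2% of all tested genes that rose and 24.8% that fell. Of 25 tested genes of other matrix and basement membrane proteins 8 rose and 3 fell, led by LAMB3, ECM2 and the small proteoglycan OGN at log2 changes of 3.41, 2.17 and 2.24. Of 18 signalling genes 6 rose and 2 fell, among them TGFBR1 (a receptor for transforming growth factor beta) at 1.10, THBS1 (thrombospondin 1) at 1.84 and TGFB1 (the growth factor itself) at -1.53. Of 17 genes of collagen folding 6 rose and 4 fell, with PLOD2 at 1.23, the collagen chaperone SERPINH1 at 0.88 and the galactosyltransferase COLGALT1 at -1.16. Of 16 other proteases and inhibitors 6 rose and 2 fell, and of 19 integrins and matrix receptors 5 and 2. Smooth muscle genes had 3 of 16 higher and 6 lower. Their median log2 change was -0.12, and 0.02 without the 3 libraries that stood apart. Without the 3 libraries that stood apart, 1 of 17 proteases and inhibitors rose, no integrin or receptor was called, and 2 smooth muscle genes rose and 1 fell. Of 13 quiescent stellate and pericyte genes 2 rose and 1 fell, shares below those of all tested genes, with a median log2 change of 0.04. CYGB and HGF, the hepatocyte growth factor made by stellate cells, rose by 1.24 and 1.28 and HAND2, a transcription factor of stellate cells, fell by 0.94. Of the genes named here TGFB1, COLGALT1, HGF and HAND2 missed the threshold without the 3 libraries that stood apart. In that fit 4 of 26 other matrix genes rose and 2 fell, 3 of 18 signalling genes and 3 of 17 collagen folding genes rose, and 1 of 13 quiescent stellate and pericyte genes rose, against 6.24% and 7.73% of all tested genes. In Cornish 1 other matrix gene rose and 1 fell, THBS2 at 1.32 and EMILIN2 at -1.42, and 1 gene of collagen folding rose, the prolyl hydroxylase P4HA1 at 0.74. The Cornish counts are near the shares of all tested genes there, 4.07% that rose and 3.29% that fell.

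At 5 weeks the matrix and collagen folding lists held genes called in both directions between the breeds. The signalling list held only lower calls and the stellate cell list only a higher call. Of all tested genes 6.75% were called higher and 12.3% lower in Cornish. Of 25 other matrix genes 5 were higher and 1 lower, among them EMILIN2, LAMA5 and LAMB3 at log2 differences of 1.99, 1.0 and 1.65. Of 18 signalling genes 2 were lower, a share near that of all genes, CCN2 at -1.08 and TGFB1 at -0.80. Of 17 collagen folding genes 2 were higher and 3 lower, with the procollagen proteases ADAMTS2 and ADAMTS3 at 1.89 and 1.58 and COLGALT1, P3H1 and PPIB at -0.77, -0.65 and -0.86. Of 13 quiescent stellate and pericyte genes 1 was higher, a share near that of all genes: LHX2, a transcription factor of stellate cells, at 0.97. Without the 3 libraries that stood apart each of these 11 genes missed the threshold, EMILIN2 most narrowly (edgeR adjusted p = 0.074).

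Libraries of a group also differed in a common way. With group means removed, log2 CPM of COL3A1 correlated across the 20 libraries with COL6A2 (Pearson's r = 0.89), COL6A1 (0.89), MMP2 (0.89), COL6A3 (0.84) and FBLN5 (0.84), and the median r over the other members was 0.45, against -0.01 over all tested genes. PDGFRA, TIMP3, ACTA2, DES and FBLN1 were the members least like it, at -0.03, -0.06, -0.08, -0.09 and -0.15. Outside the list the genes most like COL3A1 were PODXL, TEK, ITGA8, OGN and SLC44A1, at 0.84, 0.83, 0.83, 0.82 and 0.81. Over the 17 libraries without the 3 that stood apart they were ITGA8, PLEKHG1, EMP2, SEC14L1 and SLC44A1, at 0.90, 0.89, 0.88, 0.87 and 0.86. The median r over the other members was then 0.57, against -0.03 over all tested genes. These values are descriptions; the points share libraries, depth and scaling.

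Particular libraries often lay at the end of their group, and their part in these correlations was not tested. Replicate 1 of Cornish at 5 weeks was the lowest of its group in 29 members and replicate 3 the highest in 21. Replicate 4 of Cornish at 10 weeks was the lowest in 21, and replicate 4 of Ogye at 10 weeks the highest in 18. Over all tested genes, too, replicate 1 of Cornish at 5 weeks was less like its group. Its Spearman's rho with the other libraries of the group was 0.938 to 0.944, against 0.977 to 0.986 among those. Replicate 2 of Ogye at 10 weeks was lowest in 15 and highest in 7, with FBLN1 at 338 CPM against 40.3 to 116 CPM in the other 4 libraries, PDGFRA and LAMB1 also highest, and COL1A1 lowest at 2.01 CPM. Few counts lay behind some members: THY1, a surface marker of portal fibroblasts, held 1 to 31 counts per library and LOXL1 2 to 18, and neither was called in any comparison of all libraries. SMOC2, a relative of SMOC1, COL4A2 of basement membrane collagen and COL5A1 of type V collagen were not called there either, with log2 differences within ±0.81 in all 5 contrasts. Of the 39 genes 22 share bases with another annotated gene in the build, such as COL4A1 with COL4A2 (901 bases), ACTA2 with FAS (12322 bases) and TIMP3 with SYN3, within which it lies, so their counts may hold reads of a neighbour.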

How the data were processed

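Liver RNA of 20 libraries was prepared, per the labels' protocols, with a stranded total RNA kit that removes ribosomal and globin RNA. The authors deposited raw counts per entry, which per the submitters' processing notes came from FastQC, MultiQC, STAR and featureCounts on build GRCg7b. The sources used here give neither versions nor the strand setting, nor how 40097 assembled entries without a gene symbol (30.4% to 37.0% of a library's counts) were made. Those entries and 9 without a gene name (0.0126% to 0.0593%) were left out. Of 13956 named genes, 12769 matched a RefSeq symbol of the same build, which gave positions and spans.

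Genes were filtered with filterByExpr and fitted with edgeR 4.0.16 (limma 3.58.1, R 4.3.3): TMM scaling, a mean for each of 4 groups, robust quasi-likelihood tests for 5 contrasts, and Benjamini-Hochberg adjustment over the 10697 tested genes. CPM are counts per 1000000 counts after TMM scaling, and the SE of a log2 change is its size over the square root of F. The steps were tested on simulated data. Intervals read from 3 counts cover counting error only. The members and all gene lists were chosen with earlier results of these data known, so no set test was made. Values in every library are given for COL1A1, COL3A1, ACTA2, PDGFRB, DES and the 4 called members with the lowest adjusted p in each contrast, and up to 3 called genes of a list are named. FBLN2, ADAMTS2, PPIB and the library values of other members were added after their values were seen, and LRAT was named outside this rule. Alternatives were other size factors, no filter, a replicate block, an offset for the trend with gene span, fits without 3 libraries or of the compared groups alone, DESeq2 1.42.0, and leaving out each library. No columns were identical; Spearman's rho between libraries of a group reached at most 0.986.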

Additional observations from a re-analysis of the deposited data

Results flagged for a closer look

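In the group of Cornish at 10 weeks, 2 values stood far from the rest by Dixon's criterion (a gap over the range above 0.71 for 5 libraries). MMP2 was 7.53 CPM in replicate 4 against 12.0 to 13.6 CPM in the other 4, and VCAN was 2.23 CPM in replicate 1 against 1.22 to 1.5 CPM. These were 2 of 64 groups examined, and chance alone gives about 1 in 20.

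The breed difference at 10 weeks minus that at 5 weeks passed edgeR's test in 12 members. On the log2 scale it was -3.73 for POSTN, -3.06 for PDGFRA, -2.82 for MMP2, -2.47 for VCAN, -2.43 for LOX, -1.35 for LAMB1, -1.33 for COL6A3, -1.24 for FBN1, -1.23 for DCN, -1.16 for FBLN5, -0.85 for COL6A2 and 0.85 for TIMP2.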

How the results depend on the processing

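Other size factors and no filter on low counts left every count of called members within 1.5 times its value. Of 1553 values of the members described library by library under the alternatives, 1425 kept direction and side of the threshold. Of the rest, 95 fell short of it, 8 newly passed it without a change of sign and 25 changed sign. The 25 include passes of DES with age in Ogye, as in the fit without the 3 libraries that stood apart. The 8 were the shift of COL3A1 in 5 alternatives, the shift of PDGFRB in 2 and a fall of ACTA2 with age in Ogye in 1. The cause of the changes was not tested. For members higher in Cornish at 5 weeks (9 in all), an offset for the trend with gene span gave 3, leaving out the 3 libraries that stood apart 0, fitting the compared groups alone 0, and DESeq2 15; leaving out 1 library gave 1 to 17. For members lower at 5 weeks (0), the offset gave 1 and leaving out 1 library 0 to 1. In Ogye 22 members rose and 4 fell with age, and 9 and 1 without the 3 libraries. For members that rose in Cornish (1), a replicate block gave 2, leaving out the 3 libraries 4, the compared groups alone 5, DESeq2 4, and leaving out 1 library 0 to 3; for those that fell (6), leaving out 1 library gave 2 to 7. For positive shifts of the breed difference (1), DESeq2 gave 2 and leaving out 1 library 1 to 2, and for negative ones (11) it gave 10 to 17.

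The members counted here that changed sign had not passed in the fit of all libraries. TAGLN, which is not counted here, had passed as lower with age in Ogye at -0.96 and was at 0.06 without the 3 libraries. At 5 weeks, without the 3 libraries, COL1A1 was at 0.64 and DES at 0.57 on the log2 scale, and with the offset COL3A1 was at -0.076, ACTA2 at -0.35 and DES at 0.072. With age in Ogye, ACTA2 was at 0.051 without the 3 libraries, and DES at 1.003 there, 0.72 with the offset and 0.023 with the replicate block. Over the 27 alternatives ACTA2 ran from -0.55 to 0.051 with age in Ogye, against -0.05 in the fit of all libraries. The shift for DES was -0.34 with the offset and -0.73 without the 3 libraries. Leaving out 1 library gave -0.00779 to 0.090 for ACTA2 at 5 weeks, -0.28 to 0.077 for PDGFRB at 10 weeks, -0.12 to 0.041 for ACTA2 and -0.21 to 0.19 for DES with age in Ogye, and -0.29 to 0.12 for the shift of COL1A1.

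Replicate numbers did not pair the libraries: deviations of same-numbered libraries correlated at r = -0.26 to 0.19, over 0.1 in 4 of 20 pairs, and 4 of 20 libraries matched their own number best. The replicate block gave 7 members higher and 0 lower at 5 weeks, 1 and 7 at 10 weeks, 23 and 3 with age in Ogye, 2 and 6 with age in Cornish, and shifts of 1 and 11. Members with few counts, such as SMOC1 at 10 weeks and LOXL1 and THY1 throughout, limit what these depths can show.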
